A study of Mus musculus with 2 samples.

Results

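The interleukin-1 family and its receptors were followed through the cell types of the arthritic temporomandibular joint (TMJ), the joint between the jaw and the skull. The genes were taken by symbol, and all 10 were found among the 32285 genes of the files. They are the agonists Il1a, Il1b, Il1f9 (interleukin-36 gamma), Il18 and Il33, the antagonist Il1rn, the decoy receptor Il1r2, the signalling receptors Il1r1 and Il1rl1, and the shared receptor subunit Il1rap. The study injected complete Freund's adjuvant (CFA), an emulsion of killed mycobacteria in oil that inflames a joint, into the TMJ and sequenced single cells in droplets. One library came from WT mice and the other from Prox1 mutant mice, both C57BL/6 by the labels, 8 to 10 weeks old and CFA-treated, and female by the study's account. Prox1 encodes a transcription factor of lymphatic endothelium, and the mutant mice were heterozygous (Prox1+/-), with no cell-type-specific driver named in the methods. No library without CFA was part of the comparison, and the number of mice behind each library is not given in the sources used here.

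Interleukin-1 alpha and beta bind the receptor encoded by Il1r1, which recruits the accessory protein encoded by Il1rap and signals through Myd88 and the Irak kinases to NF-kappaB. Il1rn encodes a ligand that occupies the same receptor without signalling, and Il1r2 encodes a receptor that captures interleukin-1 and has no signalling domain. Interleukin-1 beta and interleukin-18 are made as precursors that caspase-1 cuts inside inflammasomes, and neutrophil proteases can also process family members. Interleukin-33 is stored in the nuclei of stromal cells and acts on Il1rl1 (ST2), which is known from mast cells, innate lymphoid cells and regulatory T cells. Interleukin-36 gamma uses a receptor of its own, Il1rl2, with the same accessory protein.

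The genes lie in a few groups on GRCm38. Il1a (ENSMUSG00000027399; chr2:129299610-129309972, minus strand) and Il1b (ENSMUSG00000027398; chr2:129364570-129371139, minus strand) are neighbours on chromosome 2, where Il1f9 (ENSMUSG00000044103; chr2:24186476-24193568) and Il1rn (ENSMUSG00000026981; chr2:24336853-24351494) lie on the plus strand. The receptor genes Il1r2 (ENSMUSG00000026073; chr1:40074079-40125231), Il1r1 (ENSMUSG00000026072; chr1:40225080-40317257) and Il1rl1 (ENSMUSG00000026069; chr1:40429570-40465415) follow each other on chromosome 1, all on the plus strand. Il18 (ENSMUSG00000039217; chr9:50554827-50581840), Il33 (ENSMUSG00000024810; chr19:29925114-29960718) and Il1rap (ENSMUSG00000022514; chr16:26581704-26730117) stand alone, each on the plus strand.

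The upstream sequences of 5 members are given first, because the results turn on the cells in which these genes were read: 4 mainly in myeloid cells and Il33 in mesenchymal cells. Each holds the 250 bases before a RefSeq start site on GRCm38.p6, written 5′ to 3′ on the gene's own strand, with motif matches in capitals. The motifs spelled TATAAA, the core of a TATA box, and TGANTCA, read by the AP-1 factors.
Il1b: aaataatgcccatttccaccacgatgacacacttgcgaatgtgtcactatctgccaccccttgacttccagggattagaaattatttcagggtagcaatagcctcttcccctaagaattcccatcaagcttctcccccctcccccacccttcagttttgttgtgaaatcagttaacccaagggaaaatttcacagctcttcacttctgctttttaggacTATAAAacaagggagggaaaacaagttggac
Il1a: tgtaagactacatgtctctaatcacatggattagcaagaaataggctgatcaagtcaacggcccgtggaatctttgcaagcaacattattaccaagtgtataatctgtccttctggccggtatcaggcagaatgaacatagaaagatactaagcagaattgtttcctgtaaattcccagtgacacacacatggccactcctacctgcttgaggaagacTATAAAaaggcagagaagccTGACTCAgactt
Il1f9: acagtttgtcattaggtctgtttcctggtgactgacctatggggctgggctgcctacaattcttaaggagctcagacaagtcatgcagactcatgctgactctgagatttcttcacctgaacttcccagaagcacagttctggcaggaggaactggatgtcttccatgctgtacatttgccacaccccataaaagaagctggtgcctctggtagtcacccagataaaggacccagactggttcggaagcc
Il1r2: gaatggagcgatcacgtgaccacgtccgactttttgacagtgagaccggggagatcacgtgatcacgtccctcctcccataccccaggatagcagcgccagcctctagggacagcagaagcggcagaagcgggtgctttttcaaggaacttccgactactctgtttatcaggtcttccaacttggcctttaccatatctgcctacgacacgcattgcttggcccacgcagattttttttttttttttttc
Il33, downstream start: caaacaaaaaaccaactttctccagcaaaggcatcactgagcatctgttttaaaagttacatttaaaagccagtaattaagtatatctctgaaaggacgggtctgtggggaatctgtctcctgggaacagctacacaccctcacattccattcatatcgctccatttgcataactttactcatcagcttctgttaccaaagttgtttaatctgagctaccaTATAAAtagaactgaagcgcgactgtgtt
These lie at chr2:129371140-129371389 (minus strand) for Il1b, chr2:129309973-129310222 (minus strand) for Il1a, chr2:24186226-24186475 (plus strand) for Il1f9, chr1:40085843-40086092 (plus strand) for Il1r2 and chr19:29945540-29945789 (plus strand) for Il33. In Il1b, TATAAA began 31 bases before the start site, at position -31, and in Il1a at -32, with TGACTCA 12 bases before the start. At the downstream start of Il33, TATAAA began at -29, and the upstream start of Il33 had it at -203. Over all 10 members RefSeq gave 15 promoters, searched on both strands from 250 bases before to 50 after the start. TATAAA was present in 6 of the 15, against 13.6% of 32851 promoters of all genes, TGANTCA in 2 of 15 against 7.81%, and the NF-kappaB consensus in 1 of 15, at Il1r1, against 4.51%. These shares count matches anywhere in the window, on either strand. The TATAAA matches of Il1rn, at position 15, and Il18, at -175, were on the opposite strand and away from the usual place of a TATA box. The windows of Il1f9, Il1r2, Il1rap and Il1rl1 held none of these letters, which says nothing about the factors. A match describes a sequence and is not evidence of binding.

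The WT library held 53517206 UMIs (unique molecular identifiers, each marking 1 captured transcript) over 5709 barcodes, and the mutant library 62446987 over 7846. After cells were limited to 500 or more genes and less than 10% mitochondrial UMIs, 4352 WT and 5757 mutant cells remained, with a median of 6997 and 4848 UMIs. Clustering gave 46 clusters, of which 36 could be named from marker genes, as 26 cell types in 16 lineages. The members and their pathway genes took no part in the clustering, and no member was a naming marker. The pathway genes Elane, Prtn3 and Ctsg were among the markers that named granulocyte-monocyte progenitors. Chondrocytes, osteoblast lineage cells and fibroblasts of a joint were present, whereas no cluster could be named lymphatic endothelium or synovial lining, and Prg4, a lining gene, was among the leading genes of the Pi16 fibroblasts. The unnamed clusters held 8.23% of WT and 34.1% of mutant cells, with median depths of 3300.5 and 2235 UMIs. The libraries shared 10 barcodes, 4 of them kept in both. Prox1 itself gave 563 UMIs in WT, or 11.6 counts per 1e+06 UMIs (CPM; 95% Poisson interval 10.7 to 12.6), and 315 in the mutant, or 5.80 CPM (5.18 to 6.47). These values pool all kept cells, and cell numbers differed, with 1143 WT and 641 mutant endothelial cells. They therefore do not give the level of Prox1 within a cell type. S100a8, an abundant neutrophil transcript, was also read in cells that should lack it, at 19.9% of WT and 42.01% of mutant endothelial cells after thinning to 2000 UMIs per cell. All intervals below are at 95% and cover counting error only, because each condition had 1 library, and no p-value was computed. The libraries are 3′ tag counts, so CPM values are compared between cells for the same gene and not between genes. Where UMIs of different genes are set against each other, the ratio is one of UMIs read and not of transcripts in the cell. Soluble and membrane forms of Il1rl1 and Il1rap were not separated.

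**Figure D1:**
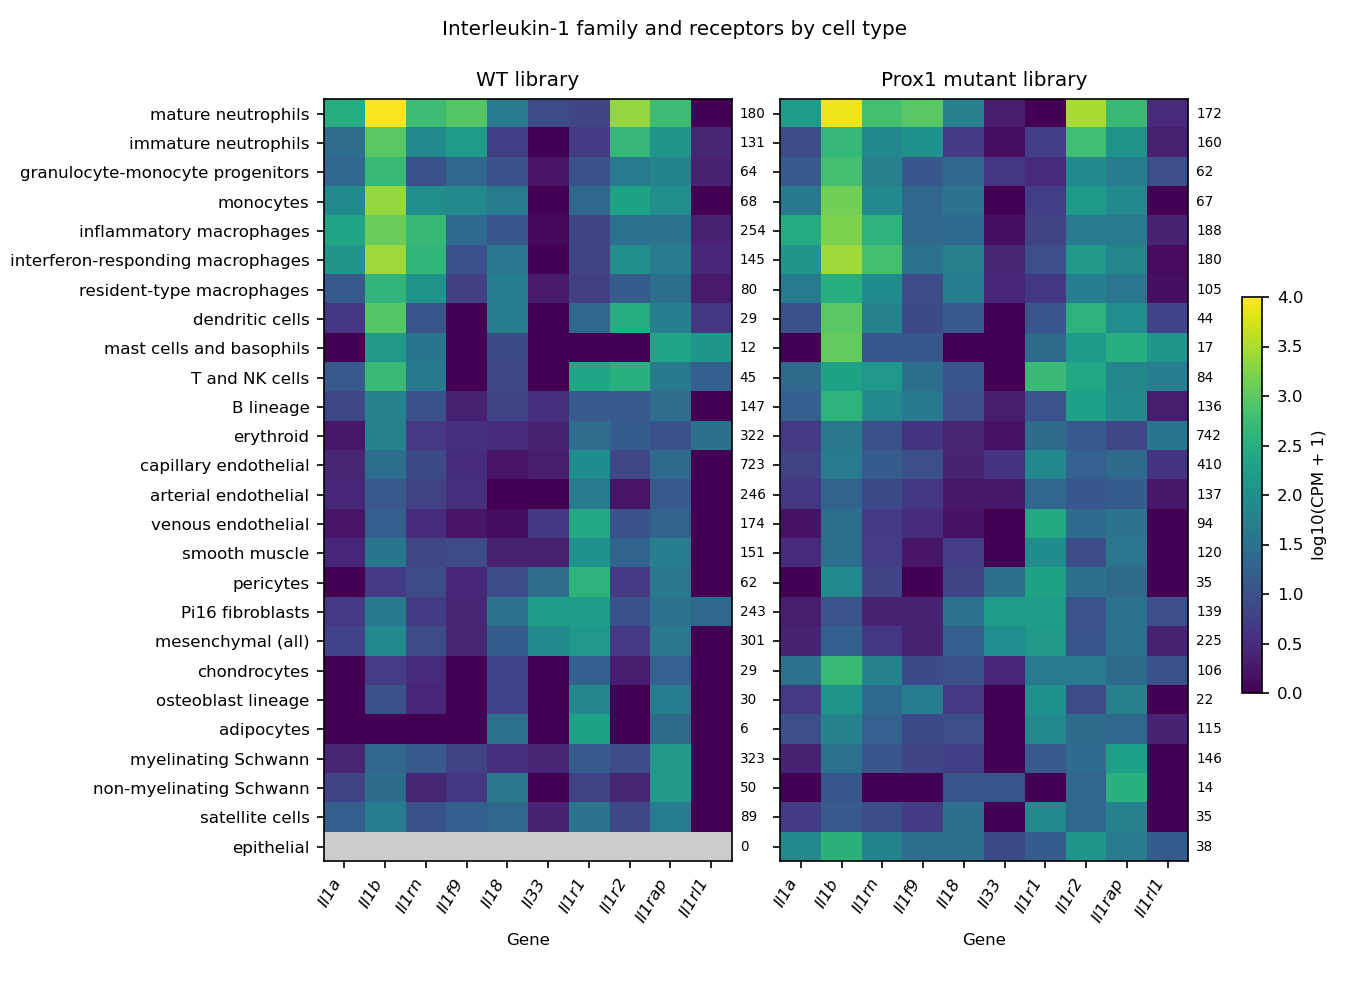
Level of each of the 10 genes (columns) in each of the 26 cell types (rows) in the WT and the Prox1 mutant library, as log10(CPM + 1), with the number of cells at the right of each row. Grey marks a type without cells, and "mesenchymal (all)" stands for the mesenchymal cells outside the Pi16 cluster. Il1b in mature neutrophils is the brightest field of each panel, and Il33 stands out in Pi16 fibroblasts and the other mesenchymal cells.

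Il1b, the main secreted agonist, gave 32664 UMIs in kept WT cells and 41698 in kept mutant cells. Orders here and below are by CPM, a share of the UMIs of a type, and not by UMIs per cell. They are given over the types with at least 20 cells, 23 in WT and 24 in the mutant. The Il1b level was highest in mature neutrophils, where 180 WT cells gave 9528 CPM (9299 to 9761) and 172 mutant cells gave 8041 CPM (7863 to 8222). Interferon-responding macrophages, named from Cxcl9, Cxcl10 and related genes, followed with 2616 CPM in WT against 2554 CPM in the mutant. Monocytes gave 2301 CPM in WT against 1424 CPM in the mutant, and inflammatory macrophages, named from Nos2, Mmp12 and Spp1, gave 1229 and 1645 CPM. The 4 highest types did not overlap in their counting intervals in either library, and monocytes and inflammatory macrophages changed places between the libraries. Below them stood dendritic cells at 876 and 935 CPM, immature neutrophils at 897 and 464 CPM, granulocyte-monocyte progenitors at 498 and 631 CPM, and resident-type macrophages, which carry Folr2 and Mrc1, at 421 and 327 CPM. Thinned to 2000 UMIs, 99.3% of WT and 96.2% of mutant mature neutrophils had an Il1b UMI, against 4.20% and 6.597% of endothelial cells. The thinned neutrophils numbered 135 and 133 and the thinned endothelial cells 999 and 576. Among interferon-responding macrophages the thinned share was 84.1% and 77.8%, and among inflammatory macrophages 64.4% and 72.3%. Median depth over both libraries was 3474 UMIs in mature neutrophils and 30603 in inflammatory macrophages. Counted per cell, mature neutrophils held fewer Il1b UMIs than either macrophage subset, with 6570 in 180 WT and 7783 in 172 mutant cells. Inflammatory macrophages held 10497 in 254 WT and 10695 in 188 mutant cells, and interferon-responding macrophages 5797 in 145 and 8821 in 180.

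Over all kept cells Il1b was 675 CPM in WT (668 to 683) against 767 CPM in the mutant (760.1 to 774.9). The level per cell type and the share of all Il1b UMIs pointed to different cells. Neutrophils were 7.15% of kept WT cells and 5.77% of mutant cells and held 24.9% and 21.4% of the Il1b UMIs. The lineage plotted as monocytes and macrophages held macrophages, dendritic cells and 2 unnamed subclusters but no cell typed as a monocyte, and it is called the macrophage lineage here. It held 53.0% and 51.2% of the Il1b UMIs. The cells typed as monocytes lay in the granulocyte-monocyte progenitor lineage, which held 8.81% and 5.62%, and the unnamed clusters held 9.54% and 17.8%. Leading among the unnamed was a cluster of 47 WT and 247 mutant cells with markers of both neutrophils and macrophages, at 1793 CPM in WT against 1670.4 CPM in the mutant.

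**Figure D2:**
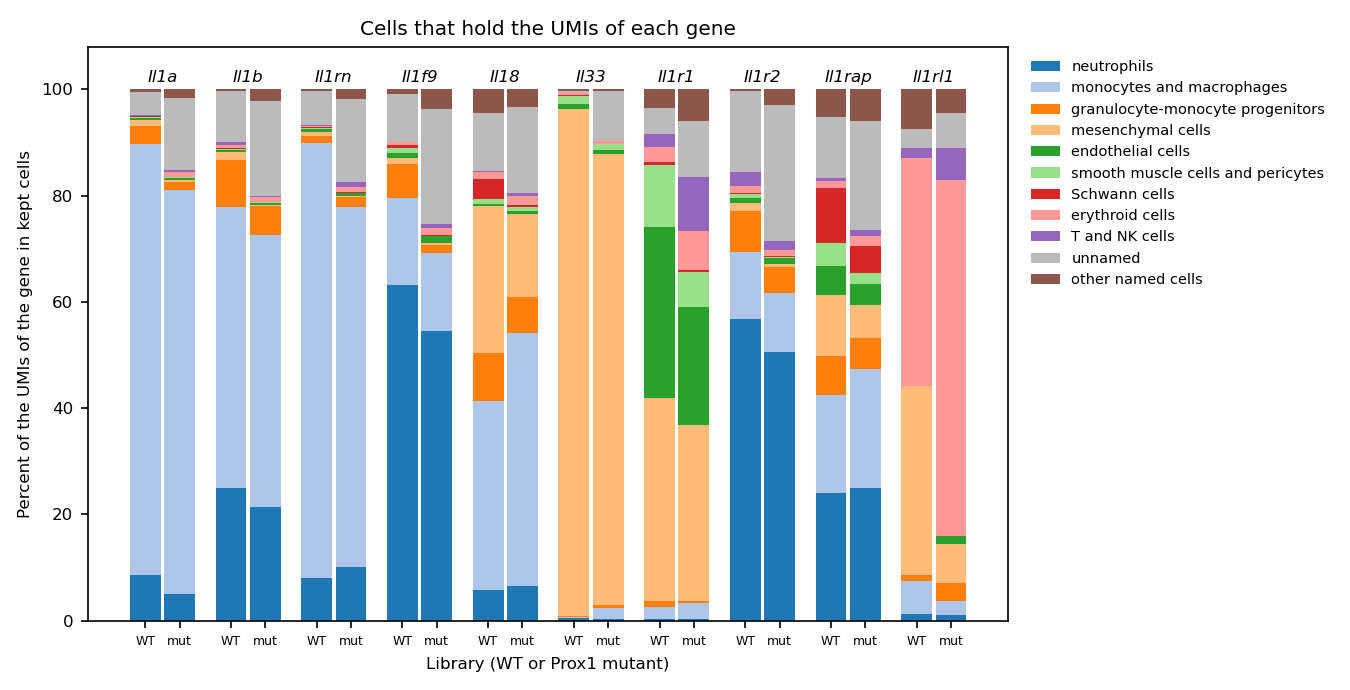
Percent of the UMIs of each gene in kept cells (vertical axis) held by each lineage, stacked, for the WT and the Prox1 mutant (mut) library. Neutrophils held most of the Il1f9 and Il1r2 UMIs, the lineage labelled monocytes and macrophages, which had no typed monocytes, most of Il1a, Il1rn and Il1b, and mesenchymal cells 95.4% of the Il33 UMIs in WT and 84.9% in the mutant.

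Il1a, the agonist that is active as a precursor and can be released by dying cells, gave 2941 UMIs in WT and 3368 in the mutant. Mature neutrophils had 296 CPM in WT (257 to 339) and 157 CPM in the mutant (133 to 184). Inflammatory macrophages had 234 CPM in WT (224 to 244) and 289.5 CPM in the mutant (277 to 303), and interferon-responding macrophages had 123 and 122 CPM. By CPM, mature neutrophils therefore stood first in WT and second in the mutant, where their interval overlapped that of interferon-responding macrophages. Counted per cell, inflammatory macrophages held more Il1a, with 1996 UMIs in 254 WT and 1882 in 188 mutant cells. Mature neutrophils held 204 in 180 WT and 152 in 172 mutant cells. The macrophage lineage held 81.3% of the Il1a UMIs in WT and 76.0% in the mutant. The UMIs of Il1a per Il1b UMI were 0.190 in WT and 0.176 in mutant inflammatory macrophages, 0.0469 and 0.0480 in interferon-responding macrophages, and 0.0311 and 0.0195 in mature neutrophils. Resident-type macrophages went from 0.0289 in WT (0.0153 to 0.0499) to 0.135 in the mutant (0.108 to 0.166), with 13 and 100 Il1a UMIs, of which 36.0% in the mutant came from 1 cell.

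Il1f9, an agonist of the interleukin-36 receptor best known from epithelium, was restricted more closely to neutrophils than Il1b. Mature neutrophils had 889 CPM in WT (820 to 962) and 902 CPM in the mutant (843 to 964), and immature neutrophils had 156 CPM (138 to 176) and 111 CPM (98.0 to 125). WT monocytes had 76.6 CPM from 62 UMIs and mutant monocytes 19.7 CPM from 13 UMIs. Inflammatory macrophages had 23.8 and 21.8 CPM, and interferon-responding macrophages 9.03 and 31.3 CPM. In thinned mature neutrophils 67.4% of WT and 66.2% of mutant cells had an Il1f9 UMI, against 0.30% and 0.87% of endothelial cells. Neutrophils held 63.1% of its UMIs in WT and 54.4% in the mutant. The unnamed clusters, some of which scored as neutrophils, held 127 of 1405 Il1f9 UMIs in WT and 454 of 2096 in the mutant.

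Il18, an inflammasome-processed agonist that acts on T and NK cells, was low and spread over several types. It gave 51.4 CPM in WT and 48.5 CPM in mutant resident-type macrophages, 35.7 and 54.4 CPM in interferon-responding macrophages, 45.0 and 53.7 CPM in mature neutrophils, and 41.998 and 31.9 CPM in monocytes. Pi16 fibroblasts, named from Pi16, Cd248 and related genes, had 29.6 and 31.0 CPM from 138 and 110 UMIs. In each library every one of the 7 highest types overlapped with the next in its counting interval. Differences between neighbours in this order were not tested. After thinning, no endothelial cell had an Il18 UMI in either library.

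Il33, the nuclear alarmin, was a mesenchymal transcript in these joints. Pi16 fibroblasts had 164.5 CPM in WT (153 to 177; 766 UMIs in 243 cells) and 157 CPM in the mutant (144 to 171; 557 UMIs in 139 cells). The other mesenchymal cells had 85.0 CPM in WT (75.7 to 95.2) and 91.7 CPM in the mutant (80.5 to 104). These other cells were themselves unequal, since 1 cluster of 133 WT and 122 mutant cells had 248 and 198 CPM and another of 168 and 103 cells had 3.38 and 4.12 CPM. Pericytes had 26.1 CPM in WT from 14 UMIs and 29.3 CPM in the mutant from 10 UMIs. In WT, 17 of the 23 types with at least 20 cells had 3 or fewer Il33 UMIs, and in the mutant 16 of 24. Endothelial cells, a source of interleukin-33 in other tissues, held 12 UMIs in 1143 WT cells and 7 UMIs in 641 mutant cells, or 1.63 and 1.41 CPM. Thinned to 2000 UMIs, 19.9% of WT and 20.9% of mutant Pi16 fibroblasts had an Il33 UMI, against 0.30% and 0.17% of endothelial cells.

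**Figure D3:**
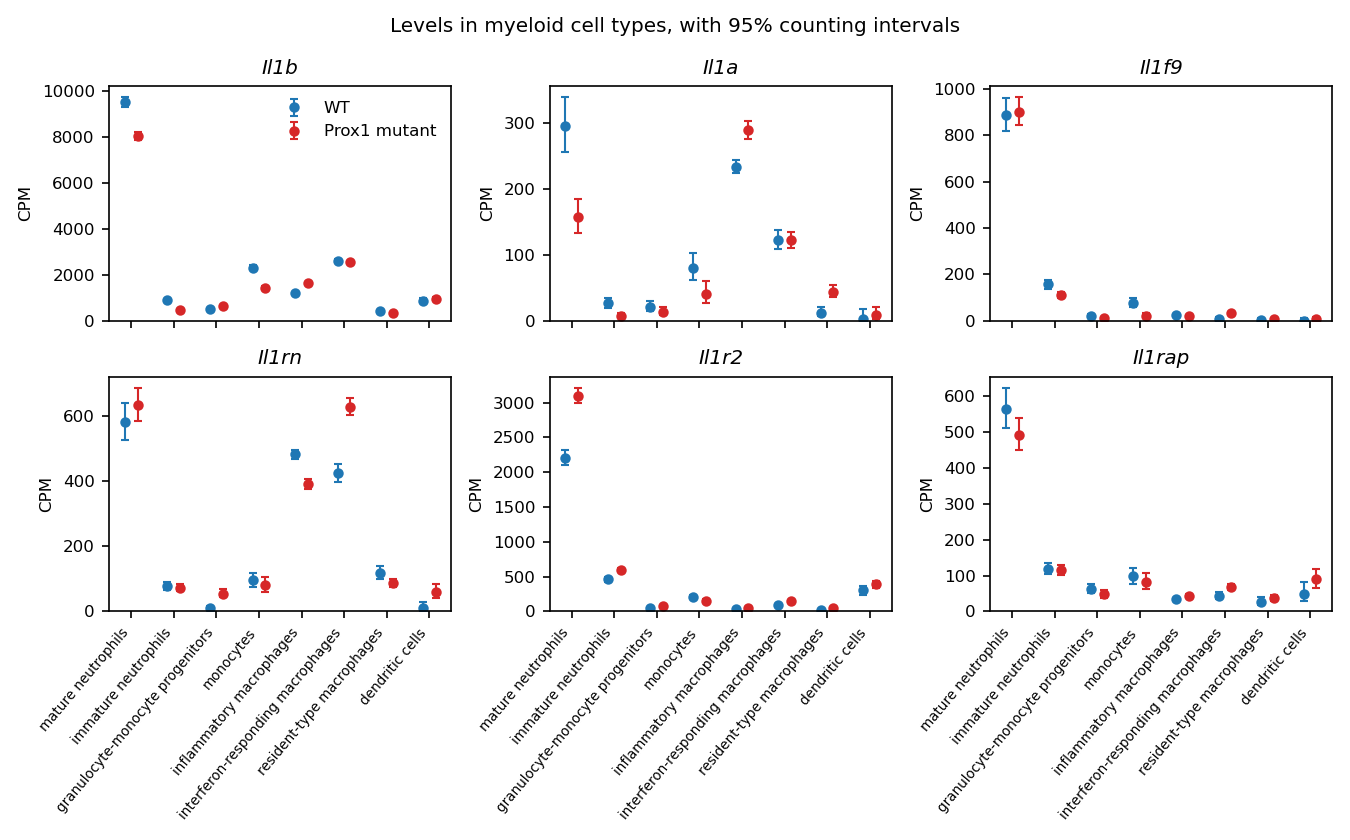
CPM of Il1b, Il1a, Il1f9, Il1rn, Il1r2 and Il1rap in 8 myeloid cell types (horizontal axis) in the WT (blue) and Prox1 mutant (red) library, on linear axes from 0, with bars for the 95% counting interval. Mature neutrophils are highest for Il1b, Il1f9, Il1r2 and Il1rap in both libraries, while Il1a and Il1rn are also high in inflammatory and interferon-responding macrophages.

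Il1rn, the receptor antagonist, was highest by CPM in 3 myeloid types. Mature neutrophils had 580.1 CPM in WT (525 to 640) and 633 CPM in the mutant (584 to 685). Inflammatory macrophages had 481 CPM in WT (467 to 496) and 391 CPM in the mutant (376 to 407), whereas interferon-responding macrophages had 424 CPM (397 to 452) and 627 CPM (601 to 654). Counted per cell, mature neutrophils held fewer Il1rn UMIs than either, with 400 in 180 WT and 613 in 172 mutant cells. Inflammatory macrophages held 4110 in 254 WT and 2544 in 188 mutant cells, and interferon-responding macrophages 939 in 145 and 2166 in 180. Monocytes were lower, at 95.1 and 80.5 CPM, as were resident-type macrophages at 118 and 87.4 CPM and immature neutrophils at 77.6 and 71.6 CPM. The number of Il1b UMIs per Il1rn UMI therefore differed between types. It was 24.2 in WT monocytes (19.3 to 30.8), 16.4 in WT mature neutrophils (14.8 to 18.2), 6.17 in WT interferon-responding macrophages (5.76 to 6.62) and 2.55 in WT inflammatory macrophages (2.46 to 2.65). In the mutant library the same ratio was 17.7 in monocytes, 12.7 in mature neutrophils, 4.07 in interferon-responding macrophages (3.89 to 4.27) and 4.20 in inflammatory macrophages (4.03 to 4.39). It was higher in the mutant in inflammatory macrophages and lower in the mutant in interferon-responding macrophages and both neutrophil types. It was also lower in the mutant in granulocyte-monocyte progenitors, at 54.5 in WT (32.3 to 100.2), from 14 Il1rn UMIs, and 11.6 in the mutant (9.19 to 14.8). The intervals overlapped in monocytes and in resident-type macrophages, at 3.57 and 3.75. Of the thinned inflammatory macrophages, 39.9% of WT and 34.6% of mutant cells held UMIs of both genes.

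Il1r2, the decoy receptor, followed Il1b in mature neutrophils and set neutrophils apart from macrophages. Mature neutrophils had 2212 CPM in WT (2102 to 2325) and 3099 CPM in the mutant (2989 to 3212). Immature neutrophils had 461 CPM in WT (430 to 494) and 597 CPM in the mutant (566 to 629), and this was the second level in both libraries. T and NK cells had 342 CPM in WT from 111 UMIs and 250 CPM in the mutant from 140 UMIs. Dendritic cells had 302 and 388 CPM from 29 and 44 cells, and in the 29 WT cells 67.0% of the UMIs came from 1 cell. Monocytes had 209 and 152 CPM, interferon-responding macrophages 95.2 and 147 CPM, and inflammatory macrophages only 31.2 and 43.5 CPM. At 2000 UMIs per cell, 85.9% of WT and 90.2% of mutant mature neutrophils had an Il1r2 UMI, as did 43.1% and 56.9% of immature neutrophils, against 0.70% and 3.82% of endothelial cells. UMIs of both Il1b and Il1r2 were found in 85.2% of WT and 87.2% of mutant mature neutrophils, and in 2.77% and 5.85% of inflammatory macrophages. Of the unnamed cells, a shallow cluster of 23 WT and 82 mutant cells whose best marker score was that of mature neutrophils had 1197 CPM in WT against 2618 CPM in the mutant.

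Il1r1, the signalling receptor, was read in stromal and vascular cells and was nearly absent from neutrophils. Pericytes had the highest WT level, 386 CPM (335 to 442; 62 cells), and 202 CPM in the mutant (158 to 256; 35 cells). Venous endothelial cells, marked by Ackr1 and Selp, had 262 CPM in WT (243 to 282) and 272 CPM in the mutant (248 to 298), above capillary cells at 88.5 and 73.5 CPM and arterial cells at 42.3 and 20.4 CPM. Pi16 fibroblasts had 167 CPM in WT (155 to 179) and 167 CPM in the mutant (153 to 181), and the other mesenchymal cells had 134 and 141 CPM. Smooth muscle cells had 104 and 87.3 CPM. The T and NK cells had 231 CPM in 45 WT cells and 529 CPM in 84 mutant cells, which came from 14 WT and 28 mutant cells with a UMI. The order in WT was pericytes, then venous endothelial and T and NK cells, whose intervals overlapped, then Pi16 fibroblasts and other mesenchymal cells. In the mutant, T and NK cells stood first, and venous cells, pericytes, Pi16 fibroblasts and other mesenchymal cells each overlapped with the next. Mature neutrophils held 4 Il1r1 UMIs in WT and 0 in the mutant, where a count of 0 allows up to 3.

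The decoy and the signalling receptor were thus divided between myeloid cells, most sharply neutrophils, on one side and fibroblasts and venous endothelial cells on the other. T and NK cells as a group carried both. In immature neutrophils there were 116 Il1r2 UMIs per Il1r1 UMI in WT (55.8 to 288) and 131 in the mutant (73.1 to 263), and in WT mature neutrophils 381 (149 to 1401). Il1r2 UMIs also outnumbered Il1r1 UMIs, at lower ratios, in WT and mutant monocytes (9.94 and 33.3) and dendritic cells (15.2 and 36.8). The same held for interferon-responding (16.2 and 17.5), inflammatory (5.32 and 7.86) and resident-type macrophages (3.00 and 14.4). In Pi16 fibroblasts the same ratio was 0.0554 in WT and 0.0575 in the mutant, and in venous endothelial cells 0.0335 in WT (0.0213 to 0.0502) and 0.0869 in the mutant (0.0615 to 0.1196). In T and NK cells the ratio was 1.48 in WT (1.09 to 2.01) and 0.473 in the mutant (0.384 to 0.580). Il1r1 and Il33 met in 5.81% of WT and 5.04% of mutant Pi16 fibroblasts after thinning. Of those with an Il1r1 UMI, 23.3% had an Il33 UMI in WT, against 18.8% of those without, and in the mutant 23.3% against 20.2%.

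Il1rap, the accessory subunit of the interleukin-1, interleukin-33 and interleukin-36 receptors, was the most evenly spread member, with more than 3 UMIs in all 23 WT and all 24 mutant types of at least 20 cells. Mature neutrophils were highest, at 566 CPM in WT (511 to 625) and 493 CPM in the mutant (450 to 539). Myelinating Schwann cells, the glia that wrap axons, had 141 CPM in WT (121 to 164) and 179.6 CPM in the mutant (149 to 215). Non-myelinating Schwann cells had 142 CPM in 50 WT cells and 361 CPM in 14 mutant cells. Immature neutrophils had 119 and 115 CPM, and monocytes 97.6 and 82.0 CPM. The 2 Schwann types and immature neutrophils overlapped in WT. Mast cells and basophils had 213 CPM in WT against 324 CPM in the mutant, from 12 and 17 cells.

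Il1rl1, the interleukin-33 receptor, was the rarest member, with 256 UMIs in kept WT cells and 457 in mutant cells. Mast cells and basophils had 131 CPM in WT (78.8 to 204) and 127 CPM in the mutant (63.5 to 227), from 19 UMIs in 12 cells and 11 UMIs in 17 cells. Erythroid cells, which carry haemoglobin genes, held 43.0% of the Il1rl1 UMIs in WT and 67.0% in the mutant. Their level was 28.9 CPM in WT (23.8 to 34.9; 110 UMIs in 48 of 322 cells) and 35.2 CPM in the mutant (31.3 to 39.3; 306 UMIs in 105 of 742 cells). The erythroid clusters were unequal, with 47.9 and 39.8 CPM in 1 cluster of 106 WT and 230 mutant cells and 4.10 and 3.66 CPM in another. Pi16 fibroblasts had 19.5 and 8.46 CPM, but only 7 of 243 WT cells held a UMI and 36.3% of the UMIs came from 1 of them. The T and NK cells had 15.4 CPM in WT from 5 UMIs and 49.995 CPM in the mutant from 28 UMIs. Most of these levels overlapped with the next in order, and 18 of 23 WT types had 3 or fewer UMIs.

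Over whole libraries, the member that differed most was Il1r2, with 84.9 and 161 CPM in WT and mutant (log2 ratio 0.93, 0.87 to 0.98), followed by Il1rl1 at 5.29 and 8.41 CPM (0.67). Il33 was lower in the mutant, at 23.1 and 17.3 CPM (-0.42), and so was Il1r1, at 67.6 and 53.5 CPM (-0.34), while Il1a differed by 0.03. These totals also carry the number of cells of each type, since mesenchymal cells were 544 of the WT and 364 of the mutant cells. The Prox1 mutant library was then compared with the WT library within each lineage that had at least 50 cells in both, for genes with at least 50 UMIs over both. Of 90 pairs of a member and a lineage, 51 in 9 lineages met this, and 11 differed at least 2-fold, 6 higher and 5 lower in the mutant. That is 21.6% of the pairs tested, against 6.36% of 79614 pairs over all genes in the same lineages. The median log2 ratio of mutant to WT over the tested pairs of members was 0.08. The 4 pairs in the B lineage made up most of those higher, and the 3 in mesenchymal cells most of those lower, and both sets are taken up below because they rested on few cells.

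**Figure D4:**
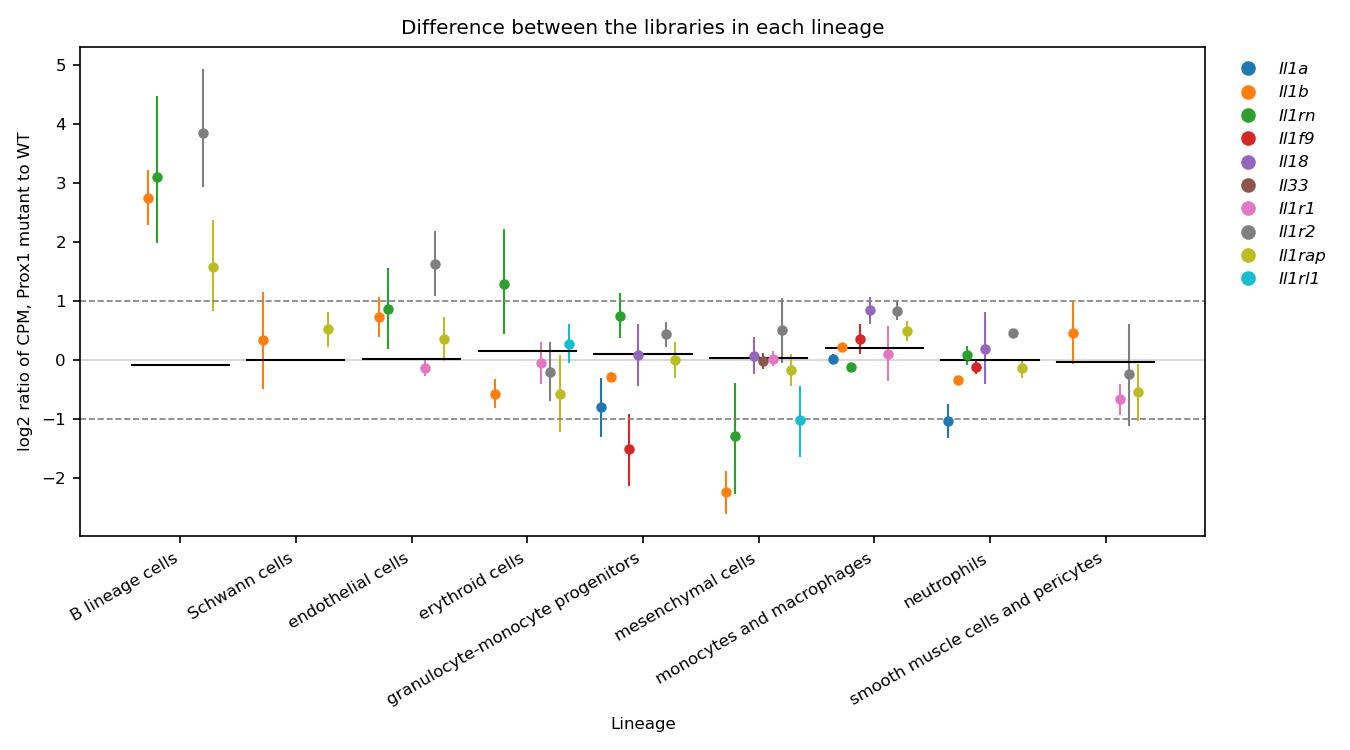
Log2 ratio of CPM, Prox1 mutant to WT, of the tested members (coloured points, with 95% counting intervals) in each of 9 lineages. Dashed lines mark 2-fold and black lines the median of all genes tested in that lineage; most points lie within 2-fold, and the 4 B lineage points lie above it.

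In neutrophils, 1 of 7 tested members passed 2-fold, against 5.24% of 7117 genes. This was Il1a, at 102.3 CPM in WT against 50.2 CPM in the mutant, with a log2 ratio of -1.03 (-1.32 to -0.74). It was lower in mature cells, by 0.91 on the log2 scale (0.60 to 1.23 lower), and in immature cells, where 46 WT and 18 mutant UMIs were read and 52.2% of the WT UMIs came from 1 cell. The ratio fell short of 2-fold with doublets removed, at -0.95, under the stricter and the looser cell filter, at -0.81 and -0.97, and without cells under 2000 UMIs, at -0.94. Counting the unnamed clusters that scored as neutrophils with the named ones gave -0.38, as did merging the libraries without integration. By CPM, Il1b was also lower in the mutant, at 3333 CPM in WT against 2630.4 CPM in the mutant (log2 ratio -0.34, -0.39 to -0.30). The log2 ratio was -0.24 (-0.29 to -0.20) in mature and -0.95 (-1.06 to -0.84) in immature cells. Mature cells made up 57.9% of WT and 51.8% of mutant neutrophils. Il1r2 went the other way, from 955 to 1312 CPM (0.46), with 0.49 (0.40 to 0.58) in mature and 0.37 (0.25 to 0.50) in immature cells. S100a8 went from 27051 to 46070 CPM in mature neutrophils. By CPM, Il1f9 differed little in mature cells, with a log2 ratio of 0.02 (-0.13 to 0.17), and so did Il1rn, at 0.13 (-0.06 to 0.31). Counted per cell, mature cells held more Il1b UMIs in the mutant, with 6570 in 180 WT and 7783 in 172 mutant cells. The same held for Il1f9, with 613 and 873 UMIs, and for Il1rn, with 400 and 613. Immature cells held fewer Il1b UMIs per cell in the mutant, with 1573 in 131 WT and 1122 in 160 mutant cells.

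In the macrophage lineage, none of 8 tested members passed 2-fold, against 7.31% of 11301 genes, but the ratios of all tested genes were centred above 0, at a median of 0.21. Il1b went from 1346 to 1579.9 CPM, a log2 ratio of 0.23 (0.20 to 0.26) that became 0.02 relative to this median. Il18 went from 18.9 to 33.9 CPM (0.85) and Il1r2 from 39.9 to 71.5 CPM (0.84), and Il1rap from 35.5 to 50.1 CPM (0.50). Among the subsets, Il1b was higher in mutant inflammatory macrophages, with a log2 ratio of 0.42 (0.38 to 0.46) beside a median of 0.20 over 9819 genes. It was lower in mutant resident-type macrophages, at -0.36 (-0.53 to -0.19), and differed by -0.03 (-0.08 to 0.01) in interferon-responding macrophages. Il1rn was lower in mutant inflammatory macrophages, at -0.30 (-0.37 to -0.23), and higher in mutant interferon-responding macrophages, at 0.57 (0.45 to 0.68) beside a median of 0.07. Il18 was higher in both of these subsets, at 0.97 (0.59 to 1.36) and 0.61 (0.22 to 1.009). S100a8 was higher in the mutant too, from 513 to 992 CPM in inflammatory and from 225 to 453 CPM in interferon-responding macrophages, and its part in these differences was not tested. In resident-type macrophages Il1r2 went from 14.0 to 50.8 CPM, from 15 and 115 UMIs, while S100a8 went from 129 to 569.8 CPM. Inflammatory macrophages were 43.1% of the cells of this lineage in WT and 27.0% in the mutant.

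The granulocyte-monocyte progenitor lineage, 1 cluster that reclustering divided into progenitors, monocytes and dendritic cells, had 1 of 7 tested members past 2-fold, against 5.61% of 8267 genes. Il1f9 went from 36.9 to 13.05 CPM, with an interval of -2.13 to -0.91 for the log2 ratio, where all genes tested had a median of 0.10, and the monocytes within this cluster accounted for 62 WT and 13 mutant UMIs. With doublets removed 29 WT and 4 mutant UMIs were left, under the limit of 50, with a ratio of -2.70, and no member was called lower in the mutant in any lineage under that setting. Under the stricter cell filter the ratio was -0.44 (-1.35 to 0.44). In the monocytes Il1b was lower in the mutant, at -0.69 (-0.81 to -0.58) beside a median of 0.08. In the cells typed as progenitors Il1rn went from 9.13 to 54.4 CPM, from 14 and 78 UMIs (log2 ratio 2.57, 1.74 to 3.51), and Il1b from 498 to 631 CPM (0.34, 0.20 to 0.48).

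Mesenchymal cells had 3 of 8 tested members past 2-fold, against 5.92% of 12048 genes. All 3 are genes that few mesenchymal cells held. Il1b went from 56.8 to 12.1 CPM, with 466 WT and 75 mutant UMIs, a log2 ratio of -2.23 (-2.60 to -1.88). In WT the UMIs came from 59 of 544 cells, 31.3% of them from 1 cell, and without the top cell of each library the ratio was -1.89. Il1rn had a log2 ratio of -1.28 from 45 and 14 UMIs, and Il1rl1 went from 11.1 to 5.49 CPM, with 91 and 34 UMIs. The Il1b ratio turned to 0.74 once doublets were removed and to 0.23 under a looser cell filter. S100a8 went in the opposite direction to Il1b in these cells, from 61.5 to 256 CPM. The members that mark mesenchymal cells did not pass 2-fold: Il33 was 130 CPM in WT against 129 CPM in the mutant (-0.01), and Il1r1 153 and 156 CPM (0.03, -0.09 to 0.15).

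In the vascular lineages most ratios were smaller than 2-fold. Endothelial cells had 1 of 5 tested members past it, against 4.15% of 10831 genes, and this was Il1r2, at 5.84 CPM in WT against 18.0 CPM in the mutant (log2 ratio 1.62). S100a8 moved with it, from 85.9 to 244 CPM, and its part in the result was not tested. Endothelial Il1r1 was 143 CPM in WT against 131 CPM in the mutant. By vessel type its log2 ratio was 0.06 (-0.11 to 0.23) in venous and -0.27 (-0.57 to 0.03) in capillary cells. In arterial cells it was -1.05 (-1.78 to -0.36), from 69 WT and 24 mutant UMIs. Smooth muscle cells and pericytes had 0 of 4 tested members past 2-fold, against 3.73% of 8142 genes. Their Il1r1 went from 174 to 110 CPM (-0.66), and in pericytes alone the log2 ratio was -0.93 (-1.35 to -0.53), with a UMI in 46.3% of 54 WT and 16.1% of 31 mutant cells after thinning. The mutant pericytes had 4665 CPM of S100a8 against 74.6 CPM in WT. Schwann cells had 0 of 2 tested members past 2-fold, against 7.29% of 7406 genes, with Il1rap at 141 CPM in WT against 203 CPM in the mutant (0.52).

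Erythroid cells had 1 of 6 tested members past 2-fold, against 7.71% of 8902 genes, which was Il1rn, at 3.68 CPM in WT from 14 UMIs and 8.96 CPM in the mutant from 78 UMIs (log2 ratio 1.28, beside a median of 0.16 over all genes tested). The sign of this ratio changed when 30 principal components were used, to -0.80, and when the members were left among the clustering genes, to -0.57. Il1rl1 in erythroid cells had a log2 ratio of 0.28 (-0.04 to 0.61).

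The B lineage had 4 of 4 tested members past 2-fold, against 12.6% of 5600 genes, which was the highest such share of the 9 lineages. Il1b went from 57.9 to 387 CPM (log2 ratio 2.74), Il1rn from 9.01 to 77.6 CPM (3.11), Il1r2 from 12.9 to 184 CPM (3.84) and Il1rap from 25.7 to 76.5 CPM (1.57). S100a8 went from 82.3 to 913 CPM in the same cells, and 62.7% of its mutant UMIs came from 1 cell. In the mutant, 91.9% of the Il1b UMIs and 88.3% of the Il1r2 UMIs lay in 1 cluster of 41 mutant cells led by Bank1, Ms4a1 and Ighd, which had 12 cells in WT. Within this cluster Il1b was 356 CPM in WT from 22 UMIs and 940.2 CPM in the mutant from 330 UMIs, Il1rn was 80.9 and 179 CPM, and Il1r2 was 0 and 430.2 CPM. In a larger cluster led by Vpreb3 and Igll1, of 135 WT and 77 mutant cells, Il1b was 32.1 CPM in WT against 19.6 CPM in the mutant, and Il1r2 was 14.0 and 33.3 CPM.

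**Figure D5:**
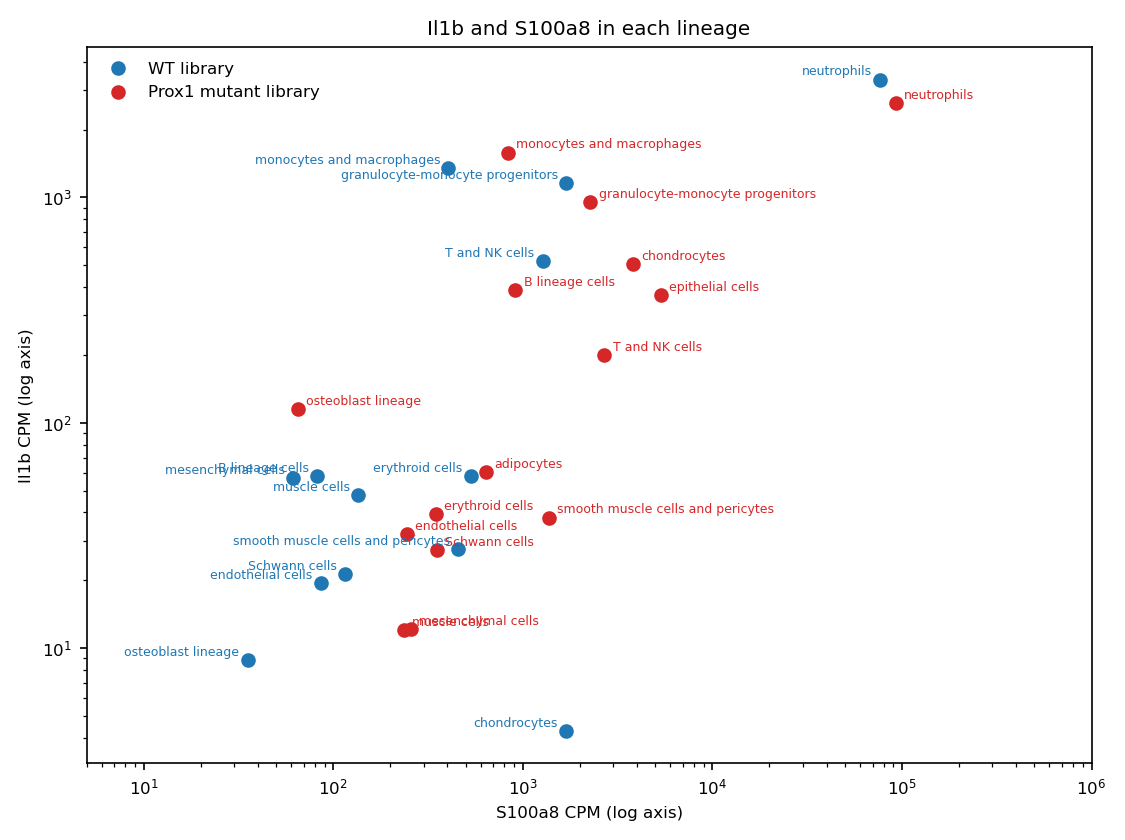
Il1b CPM (vertical, log axis) against S100a8 CPM (horizontal, log axis) in each lineage with at least 20 cells, in the WT (blue) and Prox1 mutant (red) library. Neutrophils stand at the far right and the macrophage lineage at the upper middle. Several lineages, among them the B lineage, chondrocytes, endothelial cells and the macrophage lineage, have higher values on both axes in the mutant than in WT. Neutrophils, the progenitor lineage, mesenchymal, muscle, and T and NK cells have higher S100a8 but lower Il1b in the mutant. Erythroid cells are lower on both axes.

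Some types under the limit of 50 cells also carried myeloid members in the mutant library. Mutant chondrocytes, 106 cells with a median of 3350.5 UMIs, had 505 CPM of Il1b, whereas 29 WT chondrocytes with a median of 32750 UMIs had 4.30 CPM from 4 UMIs. Their S100a8 was 1682 CPM in WT, with 98.7% from 1 cell, and 3822 CPM in the mutant. The number of Il1b UMIs per S100a8 UMI was 0.132 in mutant chondrocytes, 0.132 in mutant endothelial cells and 0.424 in mutant B lineage cells. It was 0.0473 in mutant mesenchymal cells, 0.0744 in mutant T and NK cells and 1.77 in the mutant osteoblast lineage. Among mutant neutrophils it was 0.175 in mature cells, 0.00417 in immature cells and 0.0284 in both together, and it was 1.89 in the mutant macrophage lineage. The part of depth and of S100a8 in these differences was not tested. In T and NK cells Il1r1 had a log2 ratio of 1.19 (0.82 to 1.58), and Il1b was 521 CPM in WT against 199.98 CPM in the mutant, with 33.7% and 48.2% of the UMIs from 1 cell each.

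The rest of the pathway was read from a list of 37 genes, of which Il1f5, Il1f8 and Il1f10 had no UMI. Over the same 9 lineages 209 pairs of a pathway gene and a lineage were tested and 22 passed 2-fold, 13 higher and 9 lower in the mutant, or 10.5% against the 6.36% over all genes. The median log2 ratio was 0.11. Il18r1, a chain of the interleukin-18 receptor, was highest in T and NK cells, at 409.9 CPM in WT against 669.6 CPM in the mutant. Its partner Il18rap was 329.8 and 459 CPM there and 537 and 994 CPM in the 12 and 17 mast cells and basophils. Il18bp, the soluble inhibitor of interleukin-18, was 63.3 and 62.5 CPM in the macrophage lineage. Il1rl2, the interleukin-36 receptor, was 21.4 and 19.4 CPM in mesenchymal cells and went from 9.56 to 4.74 CPM in the macrophage lineage, past 2-fold.

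Of the genes for maturation, the inflammasome sensor Nlrp3 was 485 CPM in WT and 497 CPM in mutant neutrophils and 373 and 428 CPM in the macrophage lineage. The adaptor Pycard was 202 and 179 CPM and Casp1 35.4 and 54.1 CPM in the macrophage lineage, and Casp4, the sensor caspase of the noncanonical pathway, went from 75.9 to 160 CPM there, past 2-fold. The azurophil granule proteases Elane and Prtn3, made in immature myeloid cells, were lower in mutant neutrophils, from 330 to 118 CPM and from 246 to 65.0 CPM, and Nlrc4 went from 14.3 to 4.43 CPM. These were the 3 pathway genes of 29 tested that passed 2-fold in neutrophils, against 5.24% of 7117 genes. Prtn3 was also lower in the mutant progenitor lineage, from 3073 to 1256 CPM, the only call among 28 tested there. Elane went from 2648 to 1332 CPM, short of 2-fold, and both genes were among the markers that named this lineage. In erythroid cells Elane went from 28.1 to 6.43 CPM, Prtn3 from 51.3 to 6.09 CPM and Ctsg, a related protease, from 11.3 to 2.07 CPM. Elane had the opposite direction in 2 lineages where it was low. It went from 7.30 to 15.8 CPM in the macrophage lineage (log2 ratio 1.11, 0.75 to 1.48) and from 5.02 to 12.7 CPM in endothelial cells (1.34, 0.73 to 1.97), higher in the mutant and past 2-fold in both. In the macrophage lineage 3 of 31 tested pathway genes passed 2-fold, against 7.31% of 11301 genes. Of the signalling genes, the NF-kappaB inhibitor Nfkbia was 1561 CPM in WT and 1131 CPM in mutant neutrophils, and Irak3, which restrains receptor signalling, was 151 and 154 CPM in neutrophils and 88.1 and 97.8 CPM in mesenchymal cells. In mesenchymal cells 0 of 26 tested pathway genes passed 2-fold, against 5.92% of 12048 genes. The B lineage had most of the other calls, 7 of 16 tested, against 12.6% of 5600 genes. Higher in the mutant there were Nlrp3, from 29.6 to 119 CPM, Casp4, from 29.6 to 129 CPM, Irak2, from 19.3 to 139 CPM, Irak3, from 30.9 to 74.4 CPM, Nfkbiz, from 99.1 to 247 CPM, and Prtn3, from 9.01 to 46.4 CPM. Traf6, a ubiquitin ligase of the receptor pathway, was lower there, from 131 to 60.4 CPM. The remaining calls were all higher in the mutant: Nlrp3 in endothelial cells, from 4.89 to 10.3 CPM, Irak2 in Schwann cells, from 17.5 to 37.5 CPM, Irak4 in erythroid cells, from 2.10 to 4.94 CPM, and the inflammasome sensor Aim2 in smooth muscle cells and pericytes, from 7.81 to 20.7 CPM.

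The genes most like each member over the 26 named types, by Pearson's r of log2(CPM + 10) with the libraries summed, among 13351 genes with at least 200 UMIs, were myeloid for the agonists of the interleukin-1 receptor. Il1b was closest to Clec4e (r = 0.970), Clec4d (0.961) and Snx20 (0.957), and Il1a to Clec4n (0.964), Pla2g7 (0.935) and Smpdl3b (0.923). Il1rn was closest to Clec4d (0.957), Clec4n (0.941) and Arg2 (0.933), so that Clec4d and Clec4n, which encode C-type lectins of phagocytes, each served 2 members. Il1f9 was closest to Rdh12 (0.944), Asprv1 (0.925) and Gm34589 (0.924), of which Asprv1 was among the markers used to name mature neutrophils. Il1r2 was closest to Sorl1 (0.951), Slfn1 (0.924) and Trim30b (0.914), and Il33 to Col6a6 (0.962), Mfap4 (0.961) and Lmx1a (0.937). The likeness was lower for Il1rap, to Mboat7 (0.860), for Il1rl1, to Gzmb (0.839), for Il18, to Slfn8 (0.815), and for Il1r1, to Adam12 (0.768). These are descriptions over types that share libraries and differ in depth.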

How the data were processed

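The data are 2 single-cell libraries of the TMJ, 1 WT and 1 Prox1 mutant. The authors aligned the reads with Cell Ranger 7.0.1 to mm10 (GRCm38) and deposited raw UMI counts per gene and barcode, without normalization. Whether intronic reads were counted and whether strand was used is not given in the sources used here. Il1a, Il1b, Il18, Il1r1, Il1r2 and Il1rap overlap other genes on GRCm38 (GENCODE M21), so their counts may include or lose shared reads. Kept WT cells held 48366846 UMIs and kept mutant cells 54330221. Intervals and limits cover counting error only.

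Clustering used R 4.3.3, with sctransform 0.4.2 and Seurat 5.3.0, and took from the study its cell filter (500 or more genes, less than 10% mitochondrial UMIs), anchor integration, 200 components and a resolution of 1.5. The members and pathway genes were taken out of the 3000 integration features, but Elane, Prtn3 and Ctsg stayed among the naming markers. The 30 components and the resolution of 0.5 for reclustering macrophages and progenitors were chosen here. A marker counted as raised when (CPM + 5) was at least 2 times that outside the cluster and a UMI was found in 10% or more of its cells. The lineage of a cluster was that of the type with the highest mean ratio among those with at least 3 raised markers. Within the lineage, the type with the most markers among the 10 leading genes was taken, and the mean ratio settled ties. A cluster stayed unnamed when no type had 3 raised markers, when markers of another lineage led its leading genes, or when it was mixed. A shallow cluster stayed unnamed when no marker of its lineage was among those genes. Part of this naming was settled once the clusters were known. Doublets were kept, because Scrublet marked 0 barcodes, and they were removed by rank in an alternative.

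Levels are UMIs summed over cells and scaled to 1e+06 UMIs (CPM), with Poisson intervals. Shares have Clopper-Pearson intervals, and log2 ratios exact conditional intervals at 95%. Values of 0 were set to 3 UMIs for a limit. No test across samples was possible with 1 library per condition. The rule for named genes took all members, pathway genes by their counts with values for those highest in the lineages described, and the 3 genes most like each member. The values of the pathway genes past 2-fold were added once they were known. Python 3.11.15 with scipy 1.17.1 and scanpy 1.11.5 was used. The members, the pathway list and the markers were chosen with earlier results of these data known. The calculation of ratios and the naming of clusters were tested on simulated data, and the other steps were not. Alternatives changed filters, doublets, integration, components, clustering genes, thinning depth, minimum counts and centring. Imaging and behaviour are not analysed here.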

Additional observations from a re-analysis of the deposited data

Results flagged for a closer look

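Il1b differed in opposite directions between WT and mutant in B lineage and mesenchymal cells, with log2 ratios of 2.74 and -2.23 and a gap of 4.97. Il1rn did the same, at 3.11 and -1.28, a gap of 4.39, and its ratio in erythroid cells, 1.28, was 2.56 above that in mesenchymal cells. These differences between lineages were not tested, since each rests on 1 library per condition. The mesenchymal values of both genes and the erythroid value of Il1rn changed sign under at least 1 other processing.

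Il33 was found in the unnamed clusters, which entered no comparison between lineages, at 9.96 CPM in the mutant from 88 UMIs, against 1.10 CPM in WT from 4 UMIs. The mutant UMIs included 43 in a cluster of 258 mutant cells at 67.3 CPM and 19 in a cluster of 132 mutant cells at 43.9 CPM, which held 2 and 11 WT cells. The cluster of 258 scored best as Pi16 fibroblasts, but stayed unnamed because erythroid markers led its leading genes. The cluster of 132 had fewer than 3 raised markers of any type, and its leading genes included Timp1, Tnc and Col5a3.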

How the results depend on the processing

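No paired analysis was possible because each condition had 1 library, and for the same reason no replicate could be left out. Of the 11 pairs past 2-fold, the alternatives set out at the start left 68 values within the counting interval, moved 13 and turned the sign of 6. The turned ones were Il1b in mesenchymal cells, 0.23 with cells kept at 200 genes and under 20% mitochondrial UMIs and 0.74 with doublets removed, Il1rn in the same cells, 0.70 and 0.998, and Il1rn in erythroid cells, -0.80 with 30 principal components and -0.57 with the members left among the clustering genes. The cause was not tested. In the 3 settings added after seeing the data, 22 of these values stayed and 1 moved. The count of 11 of 51 tested pairs became 21 of 70 with a minimum of 20 UMIs (10.3% over all genes). It was 24 of 78 with 10 UMIs (13.9%) and 17 of 67 with the looser cell filter (7.96%). Without doublets it was 9 of 45, all higher in the mutant (6.18% over all genes), and with 30 components 9 of 45 (6.33%). The stricter filter gave 10 of 48 (6.05%). Each other setting gave 11, of 50 to 54 tested pairs, against 6.12% to 6.48% over all genes. The B lineage ratios ranged from 1.26 to 4.30.

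The Il1b ratio in the macrophage lineage, 0.23, was 0.019 centred on all genes, 0.052 at 1000 genes and under 5% mitochondrial UMIs, 0.18 without doublets and 0.11 with 30 components. In neutrophils, -0.34 became -0.29 without cells under 2000 UMIs, -0.25 under the stricter filter and -0.42 with the libraries merged without integration. The Il1r1 ratio in mesenchymal cells, 0.03, was -0.20 under the looser filter. The neutrophil share of Il1b UMIs, 24.9% in WT, was 32.8% with unnamed neutrophil-scored clusters added, 25.5% and 22.2% under the looser and stricter filter, 26.4% without doublets and 29.6% merged. The mutant share, 21.4%, was 33.0% with those clusters, 22.5% under the stricter filter, 33.4% merged, 21.9% with 30 components and 22.0% with the members left in. Il33 in endothelial cells, -0.20, rests on 12 and 7 UMIs and ranged from -1.01 to 0.35. The thinned shares of cells moved in 132 of 180 comparisons with 1000 UMIs or no thinning.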
